A study of Homo sapiens with 9 samples.

Results

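The non-targeting control sgRNAs of a pooled CRISPR knockout screen were followed from baseline to day 10. An sgRNA is the short RNA that leads the nuclease Cas9 to a matching site in the genome. The members were the sgRNAs that the count table assigns to the control class in place of a gene, 100 of 3152 sgRNAs in all. The other 3052 sgRNAs were the targeting sgRNAs, 4 for each of 763 genes, mostly kinases and related genes.

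The screen was run in RH4, a human cell line of fusion-positive rhabdomyosarcoma, with the Brunello kinome library. All cells of the screen were infected at a coverage of 1000 cells per sgRNA, and puromycin, at 0.25 µg/ml, was added 48 h later and left for 72 h. Baseline cells were taken then. The rest recovered for 72 h and spent 10 days either in vehicle or in pralatrexate, an antifolate drug given at 1.5 nM. Each of the 3 groups (baseline, vehicle, pralatrexate) had 3 libraries, numbered as repeats of 1 cell line. The study speaks of parallel cultures and of technical replicates, so the p-values cover no more than library-to-library spread, some or all of which may be technical.

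A targeting sgRNA leads Cas9 to cut DNA, and the imperfect repair that follows can inactivate the gene. A non-targeting sgRNA is designed to match no site in the genome, so its cells carry vector and Cas9 without a directed cut. In a screen read out by abundance, cells that grow more slowly than the rest of the pool lose share and the others gain it. A read count of an sgRNA therefore stands for a share of the pool and not for a number of cells. The processed files name the control sgRNAs from Brunello_Kin_A_3053 to Brunello_Kin_A_3152 and give no sequences, so their lack of genomic matches was not checked here.

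Libraries held 2468136 to 4602712 reads. Pairs of libraries of a group differed over the non-targeting sgRNAs with a chi-square of 10.1 to 23.6 per degree of freedom, where sampling noise alone gives a value near 1. No pair was close enough to be 1 library counted again.

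The control class took a larger share of the reads at day 10 than at baseline. At baseline the 3 libraries gave it 3.30%, 3.27% and 3.30% of reads, with 95% Clopper-Pearson intervals of 3.28 to 3.31%, 3.26 to 3.29% and 3.29 to 3.32%. With vehicle the share was 4.16%, 4.25% and 4.19%, with intervals of 4.14 to 4.18%, 4.23 to 4.27% and 4.17 to 4.21%. With pralatrexate it was 4.11%, 4.18% and 4.19%, with intervals of 4.09 to 4.13%, 4.15 to 4.20% and 4.17 to 4.21%. Every day 10 library lay above every baseline library, and the vehicle and pralatrexate libraries overlapped. Intervals cover the counting error of reads only. The sources mention no molecular identifiers, so PCR copies would count as separate reads. The intervals may therefore be too narrow even for the counting of molecules. The mean share was 3.29 ± 0.0167% over the baseline libraries, 4.20 ± 0.0445% over vehicle and 4.16 ± 0.0438% over pralatrexate (SD, n = 3 libraries each).

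Per sgRNA, controls and targeting sgRNAs started almost level. The mean read count was 1317 ± 152 per non-targeting sgRNA and 1268 ± 152 per targeting sgRNA at baseline (SD, n = 3 libraries). With vehicle these means were 1707 ± 333 and 1275 ± 238, and with pralatrexate 1439 ± 375 and 1087 ± 283. Within libraries the ratio of the first to the second ran from 1.03 to 1.04 for the baseline libraries, 1.32 to 1.35 for vehicle and 1.31 to 1.33 for pralatrexate. The difference between the class medians of log2 CPM (CPM, reads of an sgRNA per 1000000 reads of its library) was 0.01, 0.04 and 0.03 in the baseline libraries. It was 0.43, 0.45 and 0.40 with vehicle and 0.41, 0.43 and 0.44 with pralatrexate. The gap between the classes thus appeared in all 6 day 10 libraries and in similar size in both arms.

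The controls were also set against a pair of gene lists. The first list held 44 genes that most human cells need, among them the mitotic kinases PLK1 and AURKB and the cell cycle kinase CDK1 (176 sgRNAs). The second held 32 genes known mainly from germline, blood, retinal or gut cells, such as the sperm kinases TSSK1B and TSSK2 and the lymphocyte kinases LCK and ZAP70 (128 sgRNAs). Expression of these genes in RH4 was not measured here. Both lists were chosen with earlier results of these data known, so they are not independent yardsticks. Mean reads per non-targeting sgRNA over mean reads per sgRNA of the essential list went from 1.11 ± 0.00502 at baseline to 3.17 ± 0.152 with vehicle and 3.15 ± 0.124 with pralatrexate (SD, n = 3 libraries each). Over the tissue-restricted list the same ratio went from 1.04 ± 0.00881 to 1.26 ± 0.0191 and 1.24 ± 0.0351. Over sgRNAs of neither list it went from 1.03 ± 0.00533 to 1.29 ± 0.0132 and 1.28 ± 0.0121. The controls gained ground on all of these classes, the tissue-restricted genes included. The essential list itself held 5.20 ± 0.0104% of baseline reads, 2.34 ± 0.0900% of vehicle reads and 2.33 ± 0.0687% of pralatrexate reads. The tissue-restricted list held 4.04 ± 0.0143%, 4.26 ± 0.0512% and 4.29 ± 0.0773%.

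How evenly the controls shared their reads hardly moved over the screen, while the targeting sgRNAs grew less even. The Gini index is 0 when every sgRNA has the same count and nears 1 when a few hold all reads. Over the 100 controls the baseline libraries gave 0.261 ± 0.00745, the vehicle libraries 0.262 ± 0.00617 and the pralatrexate libraries 0.254 ± 0.00945 (SD, n = 3 libraries). Over targeting sgRNAs it was 0.238 ± 0.00329, 0.287 ± 0.00256 and 0.285 ± 0.00128. The controls were thus the less even class at baseline and the more even class at day 10. For the controls the 90th percentile of reads was 3.73 ± 0.179, 3.97 ± 0.253 and 3.55 ± 0.401 times the 10th, in the same group order. For targeting sgRNAs it was 3.22 ± 0.0459, 4.48 ± 0.0936 and 4.37 ± 0.0973 times. No single control dominated. The most abundant one held 1.97 to 2.30% of the control reads of a library, and the top 10 together held 18.0 to 19.0%.

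Brunello_Kin_A_3085 had few reads in all 9 sequenced libraries, baseline included. It was the only control removed by the filter on low counts, a mean of at least 30 reads over these libraries. It had 0, 7 and 24 reads at baseline, 5, 38 and 0 with vehicle and 15, 15 and 13 with pralatrexate. A count of 0 allows a share of up to 7.33e-05% of reads in baseline library 1 and up to 6.84e-05% in vehicle library 3, for counting error alone. The other 99 controls had mean counts between 327 and 2937 reads. Brunello_Kin_A_3061 was the most abundant at baseline, at 690.0, 644 and 734 CPM. It stood at 843, 831 and 737 CPM with vehicle and at 817, 646 and 908 CPM with pralatrexate. Brunello_Kin_A_3115 was the least abundant of the 99 at baseline, with 63.3, 71.3 and 74.9 CPM, then 108, 76.3 and 98.9 with vehicle and 107, 73.7 and 109.5 with pralatrexate. Brunello_Kin_A_3115 was higher in all 3 vehicle libraries than in any baseline library, whereas its pralatrexate libraries overlapped baseline by 1 library.

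The spread of a control between libraries of its group was well above counting error. For each sgRNA the SD of log2 CPM over the 3 libraries was taken. Over the controls the baseline libraries gave a median SD of 0.123, the vehicle libraries 0.147 and the pralatrexate libraries 0.146. Counting error alone would give 0.0410, 0.0362 and 0.0396, so the spread was 3.01, 4.06 and 3.69 times as large. Targeting sgRNAs had medians of 0.120, 0.163 and 0.160. The common dispersion, edgeR's estimate of variation between libraries beyond counting, was 0.0142 over the controls, a coefficient of variation of 11.9%. Over the tissue-restricted list that coefficient was 13.0%, over all targeting sgRNAs 13.2%, and over the essential list 20.4%. By this coefficient the controls varied least of these classes, a difference that was not tested. By the median SD at baseline they did not, since the tissue-restricted list had 0.117.

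The comparison of vehicle with baseline asked how abundance moved over the screen without drug. Nearly all controls moved up, by a similar amount. The median log2 fold change of the 99 non-targeting sgRNAs was 0.31, a 1.24-fold rise, with quartiles of 0.25 and 0.40, an SD of 0.13 over sgRNAs and a range from -0.05 to 0.67. The value was above 0 for 97 of 99, beside 52.4% of all tested sgRNAs. With edgeR at an FDR under 0.05, 38 controls rose and 0 fell, against 6.26% of all 3145 tested sgRNAs that rose and 12.8% that fell. At an unadjusted p under 0.05 the count was 70 up and 0 down, beside 441 up and 542 down of all 3145. The count of 38 fell to 24 without baseline library 2 and to 23 without baseline library 3. DESeq2 called 56 higher, including all 38. For these and the later alternative fits the share of all sgRNAs called is not given. Such counts describe the controls only.

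Targeting sgRNAs had a median of 0.01 and an SD of 0.57 in the same comparison, with 159 of 3046 higher and 401 lower. The tissue-restricted list had a median of 0.04 and an SD of 0.26, with 6 of 128 sgRNAs higher and 6 lower. The essential list had a median of -1.35, with 1 of 175 higher and 146 lower. Relative to the control median, the median of targeting sgRNAs was -0.31, that of the tissue-restricted list -0.27 and that of the essential list -1.66 on the log2 scale. The scale sets the zero point of these values. TMM scaling assumes that most sgRNAs do not change. With libraries scaled on the controls themselves, their median was -0.01 by construction and 1 control was called higher. With libraries scaled on the tissue-restricted list, their median was 0.26 and 25 were called higher. The gap between controls and targeting sgRNAs does not depend on this choice and was 0.31 under each scaling tried.

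Library by library the picture was the same. Against the baseline mean, the median control stood at 0.29, 0.36 and 0.32 (log2) in the vehicle libraries and at 0.26, 0.30 and 0.31 in the pralatrexate libraries. The median targeting sgRNA stood between -0.01 and 0.00 in these 6 libraries. These values are TMM-scaled, and that scaling largely sets the targeting median near 0. A share of 94.3 ± 2.10% of controls in the vehicle libraries and 95.3 ± 4.77% in the pralatrexate libraries was above their own baseline mean (SD, n = 3 libraries each). Counting sgRNAs with no overlap between the groups, 64 of 99 controls were higher in all 3 vehicle libraries than in all 3 baseline libraries, and 0 were lower. Over all sgRNAs 15.9% were higher in this way and 19.6% lower.

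The 5 controls with the largest rise in vehicle all passed the test. Brunello_Kin_A_3111 had 196, 148 and 151 CPM at baseline and 293, 249 and 261 CPM with vehicle. Its log2 fold change was 0.67 ± 0.16 (SE; edgeR FDR 0.00215). With pralatrexate it had 258, 250.0 and 286 CPM, so all 6 day 10 libraries lay above all 3 baseline libraries. Brunello_Kin_A_3133 had 276, 265 and 315 CPM at baseline, 517, 477 and 373 with vehicle and 403, 351 and 409 with pralatrexate. It rose by 0.65 ± 0.13 with vehicle (edgeR FDR 0.000367) and again showed no overlap. Brunello_Kin_A_3089 had 207, 175 and 193 CPM at baseline, 315, 304 and 283 with vehicle and 304, 228 and 222 with pralatrexate. All 6 day 10 libraries were above baseline, with a log2 fold change of 0.63 ± 0.15 in vehicle (edgeR FDR 0.00318) and of 0.37 with pralatrexate, which did not pass (edgeR FDR 0.0997). Brunello_Kin_A_3075 went from 161, 164 and 121 CPM to 249, 243 and 205 with vehicle, and Brunello_Kin_A_3084 from 205, 219.6 and 222 CPM to 373, 299 and 319. Their log2 fold changes were 0.62 ± 0.17 and 0.59 ± 0.14 (edgeR FDR 0.01 and 0.00275), with no overlap between the groups in either.

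At the other end, 5 controls stayed close to baseline in vehicle and none of them passed the test. Brunello_Kin_A_3139 had 102, 117 and 105 CPM at baseline and 134, 75 and 110.0 with vehicle, a log2 fold change of -0.05 ± 0.22 (edgeR FDR 0.91). Its vehicle libraries spanned the baseline range on both sides, and its pralatrexate libraries, at 163, 126 and 154 CPM, were all above it. Brunello_Kin_A_3122 had 235, 238 and 252 CPM at baseline, 206, 267 and 254 with vehicle and 196, 256 and 276 with pralatrexate, with 1 library of each day 10 arm low and the others above baseline. Its log2 fold change was -0.02 ± 0.16 with vehicle (edgeR FDR 0.959). Brunello_Kin_A_3145 had 248, 290.2 and 304 CPM at baseline and 237, 284 and 346 with vehicle. Brunello_Kin_A_3120 had 161, 159 and 132 CPM at baseline and 182, 133 and 159 with vehicle. Both sets overlapped, with log2 fold changes of 0.02 and 0.04. Brunello_Kin_A_3104 had 437, 421 and 443 CPM at baseline and 522, 443 and 428 with vehicle, a log2 fold change of 0.07 ± 0.11 (edgeR FDR 0.707), with 1 vehicle library above the rest. The signs of these small values turn when single libraries are left out. These are the lowest of 99 values and were picked as such.

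The scatter among controls was little more than the error of a single control. Over the 99 controls the SD of the log2 fold changes was 0.133 in vehicle against baseline, and the median standard error was 0.126, a ratio of 1.06. For all targeting sgRNAs that ratio was 4.04. For the tissue-restricted list the SD was 0.255 and the median standard error 0.137, a ratio of 1.87. The sgRNAs of that list thus scattered more widely than controls measured at similar precision, a difference given with no test. In vehicle the scatter of controls narrowed with depth. The 33 least abundant (327 to 1150 reads on average) had a median of 0.32 and an SD of 0.18, with 8 called higher. The middle 33 (1158 to 1766 reads) had a median of 0.30 and an SD of 0.12, with 14 called. The 33 most abundant (1777 to 2937 reads) had a median of 0.30 and an SD of 0.086, with 16 called. In vehicle the size of the rise was alike in these 3 sets, and the number called went up with depth. With pralatrexate against baseline the medians of the same sets were 0.39, 0.34 and 0.27 and the SDs 0.18, 0.096 and 0.12, so the scatter was smallest in the middle set, with 7, 14 and 14 called.

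The comparison of pralatrexate with baseline gave the controls nearly the same rise. It uses the same baseline libraries as the vehicle comparison, so the values are given side by side and are not independent. The median log2 fold change was 0.34, a 1.26-fold rise, with quartiles of 0.24 and 0.40, an SD of 0.14 and a range from -0.17 to 0.66. It was above 0 for 97 of 99, beside 52.8% of all sgRNAs. With edgeR at an FDR under 0.05, 35 controls rose and 0 fell, against 5.98% and 13.1% of all sgRNAs. At an unadjusted p under 0.05 the count was 62 up and 0 down, beside 428 up and 537 down of all 3145. The count of 35 dropped to 19 without baseline library 1 or 2, to 20 without baseline library 3 and to 21 without pralatrexate library 3. DESeq2 called 47. In 66 of 99 controls all 3 pralatrexate libraries were above all 3 baseline libraries and in 0 below, against 16.5% and 19.4% of all sgRNAs. The tissue-restricted list had a median of 0.05 with 6 of 128 higher and 3 lower, and the essential list a median of -1.29 with 1 of 175 higher and 151 lower. The calls overlapped in part. The number called in both arms was 24, which is 24 of 38 in vehicle and 24 of 35 in pralatrexate, and 49 were called in at least 1. The same overlap over all sgRNAs is not given here, and both arms use the same baseline libraries. These overlap counts thus describe the controls only.

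Brunello_Kin_A_3056 had the same rise with pralatrexate as Brunello_Kin_A_3111 to 2 decimals. Its libraries held 209.7, 171 and 185 CPM at baseline, 242, 279 and 262 with vehicle and 311, 247 and 348 with pralatrexate. The log2 fold change was 0.66 ± 0.15 with pralatrexate (edgeR FDR 0.00226) and 0.45 with vehicle (edgeR FDR 0.0382), with all 6 day 10 libraries above baseline. Brunello_Kin_A_3106 came next, from 94.8, 115 and 113 CPM at baseline to 97.4, 138 and 187 with vehicle and 127, 117 and 255 with pralatrexate. It reached 0.60 ± 0.26 with pralatrexate and did not pass (edgeR FDR 0.106). Its libraries spread widely, with the third library of both arms far above the others. It had the largest residual SD among the 99 controls that passed the filter, 0.46 on the log2 scale, against a median of 0.159. Brunello_Kin_A_3142 and Brunello_Kin_A_3070 followed with 0.41 and 0.40. The first of these had 107, 184 and 138 CPM at baseline, 167, 214 and 265 with vehicle and 146, 219 and 289.8 with pralatrexate. Brunello_Kin_A_3070 had 97.8, 85.3 and 78.4 CPM at baseline, 131, 113 and 106 with vehicle and 167, 68.9 and 134 with pralatrexate, where its second library alone fell below baseline.

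The lowest control with pralatrexate was Brunello_Kin_A_3109, one of the least abundant. It had 76.3, 95.5 and 66.6 CPM at baseline, 75.8, 126 and 87.7 with vehicle and 73.8, 54.7 and 86.6 with pralatrexate. All 3 groups overlapped, and its log2 fold change of -0.17 ± 0.26 was not called (edgeR FDR 0.7). Brunello_Kin_A_3124 was among the most abundant and among the lowest with pralatrexate. It had 605, 621 and 660.0 CPM at baseline, 708, 766 and 824 with vehicle and 618, 707 and 654 with pralatrexate. Its vehicle libraries were all above baseline without passing (0.26 ± 0.10, edgeR FDR 0.0571), and its pralatrexate libraries overlapped baseline (0.04, edgeR FDR 0.81).

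The rise was also fitted over both arms together, as 6 day 10 libraries. The median log2 fold change was 0.31 with an SD of 0.11 over the controls and a range from -0.02 to 0.67. Of the 99 controls 98 were above 0, beside 53.1% of all sgRNAs. With edgeR at an FDR under 0.05, 55 controls rose and 0 fell, against 9.03% and 15.2% of all sgRNAs. That fit treats same-numbered libraries of the 2 arms as independent, although they deviated together. With each such pair summed into 1 library, 57 rose and 0 fell. The count was 29 without baseline library 1 and 31 without baseline library 2 or 3. How many of all sgRNAs were called in these alternative fits is not given here. All 6 day 10 libraries lay above all 3 baseline libraries for 48 of 99 controls, and 0 controls had all 6 below. Over all sgRNAs these shares were 9% and 14.8%. A further 24 controls had 5 of the 6 libraries above baseline and 20 had 4. In the tissue-restricted list 10 of 128 sgRNAs had all 6 libraries above baseline and 10 had all 6 below. In the essential list 2 of 175 had all 6 above and 154 had all 6 below.

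The comparison of pralatrexate with vehicle asked what the drug added at day 10, and no control was called in it. The median log2 fold change of the 99 controls was -0.0041, with quartiles of -0.08 and 0.09, an SD of 0.14 and a range from -0.43 to 0.47. The value was above 0 for 47 of 99, beside 49.7% of all sgRNAs. With edgeR at an FDR under 0.05, 0 controls were higher and 0 lower, against 0% and 0.0318% of all sgRNAs, and DESeq2 also called 0. At an unadjusted p under 0.05 there were 5 of 99 controls, 1 higher and 4 lower, or 5.05%, beside 5.60% of all sgRNAs. The lowest edgeR FDR of a control was 0.820. Without overlap 1 control was higher in all 3 pralatrexate libraries and 6 were lower, against 4.36% and 4.61% of all sgRNAs. The SD over controls was 1.15 times their median standard error, beside 1.06 times for the tissue-restricted list and 1.36 times for targeting sgRNAs.

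None of the 6 most extreme controls of that comparison passed the test, in the same fit without pairing. Brunello_Kin_A_3139, described above as the lowest control in vehicle, was the highest at 0.47 ± 0.22 (edgeR FDR 0.857). Both comparisons use the same vehicle libraries, so its places in them are not independent. Brunello_Kin_A_3109 was the lowest at -0.43 ± 0.26 (edgeR FDR 0.911). Brunello_Kin_A_3074 had 358, 404 and 379.8 CPM at baseline, 518, 593 and 520.2 with vehicle and 371, 462 and 507 with pralatrexate, all 3 below vehicle. Its difference of -0.29 ± 0.12 did not pass (edgeR FDR 0.82). Brunello_Kin_A_3121 had 472, 404 and 447 CPM at baseline, 538, 585 and 614 with vehicle and 410.3, 517 and 516 with pralatrexate, again below vehicle in all 3, at -0.27 ± 0.11 (edgeR FDR 0.82). On the upper side Brunello_Kin_A_3100, with 123, 105 and 104 CPM in vehicle and 111, 145 and 149.5 with pralatrexate, stood at 0.28 ± 0.23 (edgeR FDR 0.911). Brunello_Kin_A_3136, with 192, 201 and 134 CPM in vehicle and 178, 248 and 213 with pralatrexate, stood at 0.27 ± 0.19 (edgeR FDR 0.911). In each of these last 2 the groups overlapped.

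Set against the range of the controls, many targeting sgRNAs lay lower and few higher. In vehicle against baseline 1239 of 3046 targeting sgRNAs (40.7%) were below the lowest control and 12 above the highest, and 280 (9.19%) were above the control median. In the essential list 168 of 175 sgRNAs were below the lowest control, and in the tissue-restricted list 42 of 128. With pralatrexate against baseline 845 (27.7%) were below and 9 above, and 221 (7.26%) exceeded the control median. In pralatrexate against vehicle 45 (1.48%) were below, 29 (0.952%) above, and 50.7% exceeded the control median. Each bound is 1 sgRNA and moves with 1 library. The vehicle count below was 701 without vehicle library 1, and the counts above were 5 without baseline library 2 and 7 without vehicle library 3. The pralatrexate count below was 526 without pralatrexate library 3 and 1350 without baseline library 2, and the count above was 20 without pralatrexate library 3. In pralatrexate against vehicle the count below was 18 without vehicle library 1, 221 without vehicle library 2, 101 without pralatrexate library 2 and 22 without pralatrexate library 3. The count above was 14 and 76 without vehicle library 1 or 2, and 64, 18 and 53 without pralatrexate library 1, 2 or 3. With the 5th and 95th percentiles of the controls as bounds, the counts below were 1891, 1963 and 200 and the counts above 32, 23 and 283, in the order of the comparisons above.

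By gene, 105 of 763 had all their tested sgRNAs below the lowest control in vehicle against baseline, among them 39 of the 44 essential genes. The 10 lowest by mean log2 fold change were CDK1, CDK9, TRRAP, CDC7, MVK, DTYMK, CLP1, CHEK1, GUK1 and PLK1. CDK1, which drives entry into mitosis, stood at -3.57 from the control median on the log2 scale. CDK9, which releases paused RNA polymerase, stood at -3.20 from it, and PLK1, a kinase of spindle assembly, at -2.43. DTYMK, which makes dTDP for DNA synthesis, stood at -2.73. The essential genes with at least 1 sgRNA inside or above the control range were CSNK2B, GSG2, RIOK1, RIOK2 and TTK. GSG2, the haspin kinase of histone H3, had 3 of 4 sgRNAs below the lowest control and a mean of -0.13. In the tissue-restricted list GUCY2D, a guanylate cyclase of the retina, and TSSK2, a sperm kinase, had all 4 sgRNAs below. Their means were -0.33 and -0.13, or -0.65 and -0.44 from the control median. With pralatrexate 72 genes had all sgRNAs below the lowest control, 33 of them in the essential list and 0 in the tissue-restricted list, and CDK1 was again the lowest at -3.83 from the control median. These gene counts rest on the same single bounds. With the 5th percentile of the controls as bound they were 190 in vehicle and 218 with pralatrexate, the opposite order.

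Few genes stood above the controls. In vehicle against baseline the mean over sgRNAs exceeded the control median for 12 of 763 genes (1.57%). CDK13, a kinase of RNA polymerase II, was the only gene with all 4 sgRNAs above the control median, and all 4 were above the highest control. Its mean log2 fold change was 0.91 ± 0.13 (SD, 4 sgRNAs), of which 0.59 lay above the control median. With pralatrexate 13 genes (1.70%) exceeded the control median by their mean. All 4 sgRNAs did so for CDK13, at 0.50 above it, and for GSK3B, a kinase that marks beta-catenin for degradation, at 0.25 above it. In pralatrexate against vehicle 419 genes (54.9%) exceeded it by their mean, 0 had all sgRNAs below the lowest control (2 below the 5th percentile), and 53 had all sgRNAs above the control median. These are descriptions of position against the controls, with no test of the genes. A gene at 0 on the scaled axis in either comparison with baseline stood 0.31 (vehicle) or 0.34 (pralatrexate) below the median control. The median sgRNA of the tissue-restricted list lay at -0.27 and -0.29 from the control median in these comparisons, and the part that Cas9 cutting plays in this distance was not tested.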

How the data were processed

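Amplified sgRNA cassettes from genomic DNA of RH4 cells were sequenced in 9 libraries, 3 each of baseline, vehicle and pralatrexate, grouped by GEO's labels. The authors deposited raw read counts per sgRNA, not normalized. The submitters' processing notes name Bowtie 1.0.0, and how it was set is not given in the sources used here. MAGeCK gene tables of the authors, which hold their own comparisons and treat the controls as 1 gene, were not used. On the length of selection the study's main text differs from its methods and from the labels, and the labels were followed. The sgRNA sequences were not analysed here.

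A mean of at least 30 reads per library was required, which left 3145 sgRNAs. Counts were fitted in R 4.3.3 with the two-sided quasi-likelihood test of edgeR 4.0.16 after TMM scaling, with group alone in the model, since MAGeCK was not installed, and the p-values of single sgRNAs were adjusted by Benjamini and Hochberg over all 3145 (FDR, threshold 0.05). The edgeR step was run on simulated data in which a random subset of sgRNAs changed, as many up as down. That setting held no shift of a whole class, so it cannot check the rise of the controls. The controls as a class were described by counts, medians and SDs, with no test. CPM is reads per 1000000 reads of the library, and its log2 was taken after adding 0.5 reads. Counts of sgRNAs without overlap, changes from the baseline mean and the SD between libraries of a group were taken after TMM scaling. The standard error is the log2 fold change divided by the square root of the F statistic. A count of 0 was given an upper limit of 3 reads.

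The members and gene lists were chosen with earlier results of these data known. Named by rule were the 5 highest and 5 lowest controls in vehicle against baseline, the 3 highest and 3 lowest in each other comparison, the 3 most and least abundant, the 3 with the largest residual SD and any removed by the filter, described here in part. Genes named were the 10 lowest with every sgRNA below the lowest control and the 5 highest with every sgRNA above the control median, in part. Members of the lists named as exceptions and examples came from outside this rule, after their values were seen.

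Library numbers were checked for pairing. Deviations from the group means of same-numbered vehicle and pralatrexate libraries correlated at 0.197, 0.212 and 0.173 over all sgRNAs and at 0.382, 0.302 and 0.345 over the controls, so numbers were taken to pair these groups. For vehicle with baseline the values were 0.0935, 0.00923 and 0.0807 over all sgRNAs and 0.278, -0.0185 and 0.226 over the controls. For pralatrexate with baseline they were 0.0292, -0.0461 and -0.0208 over all sgRNAs and 0.134, -0.0116 and 0.04 over the controls. Over the controls, different-numbered libraries gave -0.406 to 0.189 for vehicle with baseline and -0.242 to 0.2 for pralatrexate with baseline. These values do not settle whether the numbers also pair libraries with baseline. Alternatives were DESeq2 1.42.0, other scalings, other filters, the compared groups alone, the replicate block and leaving out each library, with same-numbered day 10 libraries summed as one added later.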

Additional observations from a re-analysis of the deposited data

How the results depend on the processing

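In both comparisons with baseline the control median stayed positive under every setting tried except scaling on the controls themselves in vehicle, where it was -0.013, with 1 control higher. That scaling gave 0.026 with pralatrexate, with 0 higher and 1 lower (Brunello_Kin_A_3124, -0.27). Scaling on the tissue-restricted list gave medians of 0.26 and 0.28, with 25 and 20 higher. Total reads alone gave 0.34 and 0.36, and the upper quartile gave 0.32 with pralatrexate. With the replicate block, 46 controls were higher in vehicle, 38 with pralatrexate and 0 in pralatrexate against vehicle, and the block changed no count of controls called by over 1.5 times. For both arms together, alternatives also chosen after seeing the data gave 57 higher with the replicate block and 57 with same-numbered libraries summed, and 29 to 54 without 1 library. Leaving out 1 library gave, for vehicle, pralatrexate and pralatrexate against vehicle in turn, medians of 0.30 to 0.35, 0.31 to 0.33 and -0.033 to 0.016. Gaps to targeting sgRNAs were 0.30 to 0.35, 0.31 to 0.32 and -0.027 to 0.012, and SDs over controls were 0.14 to 0.16, 0.14 to 0.17 and 0.14 to 0.18. Controls called higher were 23 to 35, 19 to 30 and 0. Targeting sgRNAs below the lowest control were 701 to 1368, 526 to 1350 and 18 to 221, and above the highest 5 to 15, 6 to 20 and 14 to 76. The percentile bounds, chosen after seeing the data, gave 1891, 1963 and 200 below and 32, 23 and 283 above. DESeq2 called 56, 47 and 0 controls higher. All counts of controls called under these settings are given without the share of all sgRNAs called under the same setting. The ratio of controls to targeting reads at baseline was 1.05 over sgRNAs that passed the filter and 1.02 by medians, and 1.34 by medians with pralatrexate. Without the filter the SD of log2 CPM over controls was 1.11, 1.14 and 0.975 at baseline, vehicle and pralatrexate, with Brunello_Kin_A_3085 as the sgRNA added. The mean control Gini index in vehicle was 0.254 over controls that passed the filter and 0.262 without the filter, the value given above. Signs of single controls near 0 turned. In vehicle, Brunello_Kin_A_3122 was 0.0047 with total reads. Brunello_Kin_A_3145 was -0.0020 with the upper quartile, -0.31 scaled on the controls and -0.036 on the tissue-restricted list. Brunello_Kin_A_3120 was -0.28 and -0.011 under the latter pair of scalings, and Brunello_Kin_A_3104 was -0.25 scaled on the controls. With pralatrexate, Brunello_Kin_A_3122 was 0.0067 with total reads and Brunello_Kin_A_3124 was -0.27 and -0.011 under the latter pair. Without 1 library, vehicle values ran from -0.25 to 0.15 for Brunello_Kin_A_3139, -0.098 to 0.086 for Brunello_Kin_A_3122, -0.13 to 0.15 for Brunello_Kin_A_3145, -0.066 to 0.15 for Brunello_Kin_A_3120 and -0.014 to 0.13 for Brunello_Kin_A_3104. With pralatrexate they ran from -0.13 to 0.12 for Brunello_Kin_A_3122 and -0.012 to 0.088 for Brunello_Kin_A_3124. The cause of these shifts was not tested. Counting error was 0.0362 to 0.0410 on the log2 scale for the median control, and the median standard error went from 0.166 to 0.107 between the least and the most abundant sets in vehicle.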
